A study of Mus musculus with 6 samples.

Results

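The genes described here encode 4 members of the mouse Ly6 family of surface antigens, Ly6a, Ly6c1, Ly6c2 and Ly6e, together with Thy1. They were taken by symbol from a table of 17985 genes, in which all 5 were found and all 5 were among the 15691 genes that were tested, those averaging at least 1 CPM (counts-per-million, the reads of a gene scaled to the size of its library). RNA-seq had been done on iNKT1 cells from the thymus of C57BL/6-background mice that received no treatment. In the Ctrl group the mice carried a Tbx21Cre transgene and a Rosa26-LSL-YFP reporter (Tbx21CreTg;Rosa26-LSL-YFP+/+). The cKO group carried the same transgene and reporter and, in addition, loxP-flanked alleles of Tgfbr2 (Tbx21CreTg;Rosa26-LSL-YFP+/+;Tgfbr2F/F). Each group had 3 libraries, and since the sources used here do not say whether each came from a separate animal, p-values measure the spread between these libraries. Cre expression follows Tbx21 in this model, so cells are targeted only from the stage at which that gene is switched on.

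Invariant NKT cells are T cells that develop in the thymus, carry a nearly constant T cell receptor and recognise lipids on CD1d. Their T-bet-dependent, interferon-gamma-producing subset is called iNKT1 or NKT1. TGF-beta signals through a receptor whose ligand-binding subunit is encoded by Tgfbr2, and the signal reaches the genome through SMAD transcription factors. Ly6 proteins are small, cysteine-rich proteins held in the outer membrane leaflet by a glycosylphosphatidylinositol (GPI) anchor. Ly6a encodes Sca-1, known from haematopoietic stem cells and from activated and memory T cells, and Ly6c1 and Ly6c2 encode the near-identical forms of Ly6C, a marker of memory T cells and of inflammatory monocytes. Ly6e encodes an antigen of immature thymocytes that is also interferon-inducible, as are Ly6a and Ly6C. Thy1 encodes CD90, a GPI-anchored protein of the immunoglobulin superfamily that marks mouse T cells.

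Ly6c1 and Ly6c2 have coding sequences of 396 bases each, with 387 bases identical and 9 different, an identity of 97.7%. The first 150 coding bases hold 6 of these 9 differences. They are printed here from the start codon, from GENCODE M21 transcripts, to show how closely the genes match, with all 6 differences near the start; capitals mark the bases that differ.
Ly6c1: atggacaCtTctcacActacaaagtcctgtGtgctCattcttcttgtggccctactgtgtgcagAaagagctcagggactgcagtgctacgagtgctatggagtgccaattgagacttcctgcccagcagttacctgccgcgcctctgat
Ly6c2: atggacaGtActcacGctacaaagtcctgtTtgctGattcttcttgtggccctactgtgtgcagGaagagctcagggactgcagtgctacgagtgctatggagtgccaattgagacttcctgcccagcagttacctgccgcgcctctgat
The longest identical run within the coding sequences was 188 bases, longer than a read, since the labels give 76 sequencing cycles. Over all annotated transcripts, 19% of the distinct words of 75 bases in Ly6c1 also occurred in another gene, 259 of them in Ly6c2 and 77 in Ly6a. The share was 9.46% for Ly6c2 and 6.33% for Ly6a. For Ly6e and Thy1 it was 0 of 4384 and 0 of 3114 words. Coding identity to Ly6a was 82% for Ly6c1 and 81.7% for Ly6c2, and to Ly6e it was 49.9% and 50.6%. Reads in these shared stretches cannot be assigned to one gene, so Ly6c1, Ly6c2 and, to a smaller degree, Ly6a are uncertain as single values. Ly6C is therefore given both singly and summed, although a sum does not recover any reads that were left out in counting.

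The libraries held from 28832779 to 68092478 reads. Both replicate 3 libraries stood apart from the other 4 along the first principal component, which held 85.1% of the variance of log2(CPM + 1). They listed 4406 (Ctrl) and 4590 (cKO) genes at 0, against at most 5 genes in each other library. Tgfbr2 itself, read over the whole gene, had 461, 461 and 425 CPM across the Ctrl libraries against 289.8, 257.6 and 274 CPM across cKO, in replicate order (limma adjusted p 0.0207). The T cell receptor complex genes Cd3e and Trac ran from 1126 to 1479 and from 1351 to 2017 CPM over all 6 libraries. Same-numbered libraries of the 2 groups deviated together, so each difference is given from the comparison of group means and from the fit with the replicate number as a block. Of 16 tested genes of iNKT1 and T cell identity, 9 were higher and 7 lower in cKO. Xcl1 alone passed between group means, as lower (limma adjusted p 0.0281), where 0.663% of all tested genes passed. With the block 2 passed as higher and 1 as lower, against 1.24% and 1.64% of all tested genes. Klrb1c was uneven in Ctrl, at 566, 180 and 703 CPM in replicate order.

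Ly6c2 stood at 1367 CPM in Ctrl replicate 1, 775.9 in replicate 2 and 650.3 in replicate 3, against 2268, 1747 and 1507 CPM for the cKO replicates in the same order. Every cKO library was above every Ctrl library, although the highest Ctrl library came close to the lowest cKO library, and replicate 1 was the highest in both groups. Libraries averaged 931 ± 383 CPM for Ctrl against 1840.5 ± 389 for cKO (SD, n = 3 each), a ratio of 1.98. The log2 difference was 1.04 with a standard error of 0.29, which did not pass between group means (adjusted p 0.407 by limma). With the block, Ly6c2 rose in cKO by the same 1.04, now with a standard error of 0.098 (limma adjusted p 0.000741). Within same-numbered pairs, cKO was 1.66, 2.25 and 2.32 times Ctrl. In these bulk libraries more cells that carry a transcript and more of it per cell cannot be told apart. For Ly6c2 the authors' deposited table gives a log2 fold change of 1.05 and an adjusted p of 0.000864, and it was the only one of the 5 genes marked there as higher.

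Ly6c1 was read at 1.13, 3.12 and 3.30 CPM in Ctrl, from 38, 96 and 175 reads, and at 13.5, 9.45 and 11.9 CPM in cKO, from 389, 397 and 810 reads. No cKO library overlapped the Ctrl range, and Ctrl replicate 1, the lowest for Ly6c1, was the highest Ctrl library for Ly6c2. Libraries averaged 2.52 ± 1.21 CPM for Ctrl against 11.6 ± 2.04 for cKO (SD, n = 3 each), a ratio of 4.61. On the log2(CPM + 1) scale, which understates low genes, the difference was 1.90 with a standard error of 0.35 (limma adjusted p 0.106). With the block Ly6c1 rose, with a limma adjusted p of 0.00695. It was also past the threshold when replicates 1 and 2 were compared alone (log2 difference 2.05, limma adjusted p 0.0264). In the authors' deposited table Ly6c1 had a log2 fold change of 2.25 and an adjusted p of 0.99998.

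Summed, the Ly6C genes were at 1368, 779 and 654 CPM in Ctrl and at 2281, 1757 and 1518 CPM in cKO. Ly6c1 made up between 0.0826% and 0.783% of the sum in any library, so the sum followed Ly6c2. The summed log2 difference was 1.04 (limma adjusted p 0.395 between group means, 0.000697 with the block). Whether the balance within Ly6C differed was read from the ratio of Ly6c2 to Ly6c1 in each library, which does not depend on library scaling. The ratio was 1210.1, 248.7 and 196.8 in Ctrl and 168.1, 185.0 and 126.7 in cKO. The mean log2 ratio was lower in cKO by a signed difference of -1.30, with no overlap between groups, and an exact two-sided permutation test gave p = 0.1, the smallest value that 3 against 3 libraries allow. Without Ctrl replicate 1, in which only 38 reads fell on Ly6c1, the difference was -0.49.

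Ly6a was read at 209.6, 180.02 and 170.6 CPM in Ctrl and at 342, 259.8 and 298 CPM in cKO. The groups did not overlap, and cKO was 1.63, 1.44 and 1.75 times Ctrl in the same-numbered pairs. Libraries averaged 187 ± 20.3 CPM for Ctrl against 300.1 ± 41.2 for cKO (SD, n = 3 each), a ratio of 1.61. The log2 difference was 0.68 with a standard error of 0.13 (limma adjusted p 0.124). With the block Ly6a rose, its standard error shrinking to 0.084 (limma adjusted p 0.00308). In the authors' deposited table its log2 fold change was 0.75 with an adjusted p of 0.156.

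Ly6e took the most reads of the 5 genes, standing at 2609, 2783 and 2893 CPM in Ctrl and at 2736, 2880.1 and 3410.4 CPM in cKO. The groups overlapped, and only cKO replicate 3 lay above the Ctrl range. Libraries averaged 2762 ± 143 CPM for Ctrl against 3009 ± 355 for cKO (SD, n = 3 each). The log2 difference was 0.12, with a 95% interval from -0.13 to 0.36 between group means and from -0.030 to 0.27 with the block. Ly6e did not pass in either fit (limma adjusted p 0.99998 and 0.533).

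Thy1, on chromosome 9 and outside the Ly6 family, was read at 75.0, 72.3 and 59.1 CPM in Ctrl and at 87.5, 59.8 and 55.8 CPM in cKO. The cKO libraries spanned the whole Ctrl range, with 1 library above it and cKO replicate 3 below it. Libraries averaged 68.8 ± 8.52 CPM for Ctrl against 67.7 ± 17.3 for cKO (SD, n = 3 each). The log2 difference was -0.044, with a 95% interval from -0.49 to 0.41 between group means and from -0.30 to 0.22 with the block. Thy1 did not pass in either fit (limma adjusted p 0.99998 and 0.927), and its sign changed between tests and when single libraries were left out.

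**Figure D1:**
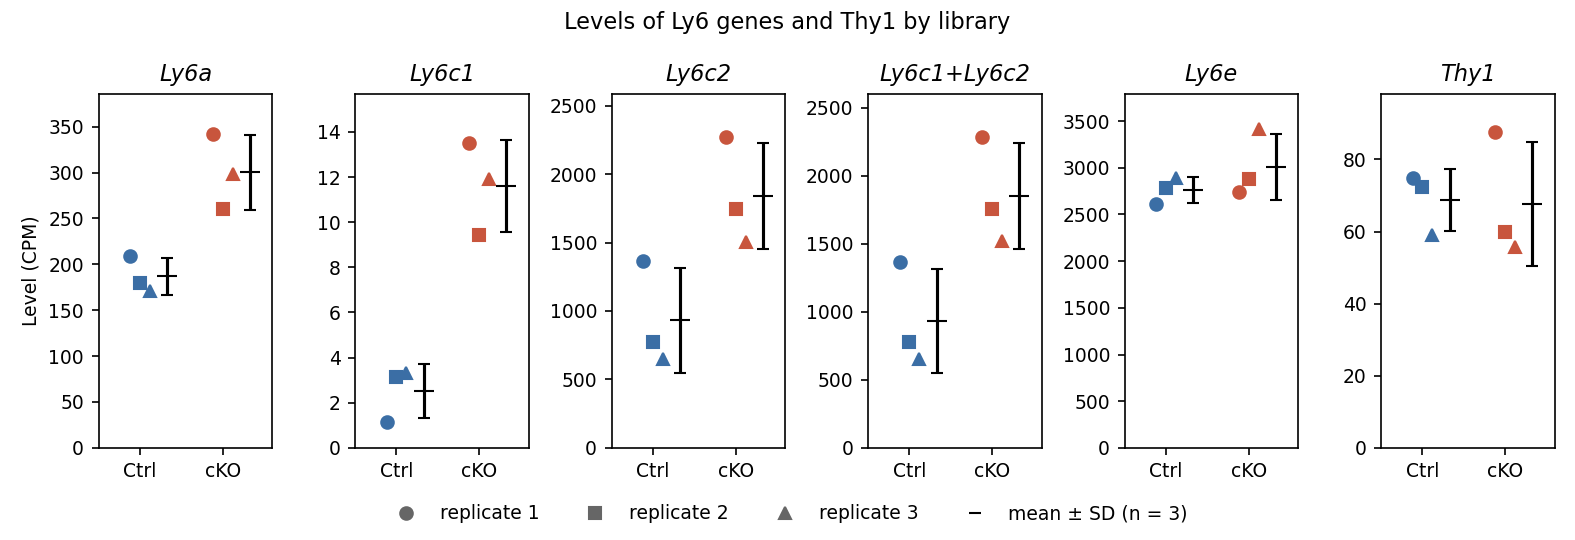
Level in CPM (vertical axes, each starting at 0) of the 5 genes and of the Ly6C sum in each library, with circles, squares and triangles for replicates 1, 2 and 3 and black bars for the mean ± SD of 3 libraries. For Ly6a, Ly6c1 and Ly6c2 the 3 cKO points lie above the 3 Ctrl points, while for Ly6e and Thy1 the groups overlap.

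Of the 5 genes, none passed a limma adjusted p of 0.05 between group means, where 0.663% of all tested genes passed. An unadjusted limma p under 0.05 was found for 3 of the 5 and for 944 of the 15691 tested genes. The quasi-likelihood test of edgeR, also unblocked, called 0 of the 5 and 0.255% of all genes. DESeq2, likewise without the block, called Ly6a, Ly6c1 and Ly6c2 as higher, where it called 3.52% of all genes and 1.78% as higher. It gave no adjusted p for 3042 of the 15691 genes, and these shares count them as not called. With the block, limma called Ly6a, Ly6c1 and Ly6c2 as higher in cKO, where 2.87% of all tested genes passed and 1.24% passed as higher. The same 3 passed with the block under edgeR (2.99% of all genes) and after TMM scaling (3.27%). Their groups did not overlap, with cKO higher, as for 3.89% of tested genes. By the authors' deposited table, Ly6c2 alone of the 5 was past 0.05, against 0.801% of its genes, or 0.345% as higher. When replicates 1 and 2 were compared alone, 1 of the 5 passed, against 1.85% of all tested genes. Those replicates with the block, a fit with 1 residual degree of freedom, again gave Ly6a, Ly6c1 and Ly6c2, against 6.01% of all tested genes. The median log2 difference was 0.68 over the 5 genes and -0.038 over all tested genes.

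**Figure D2:**
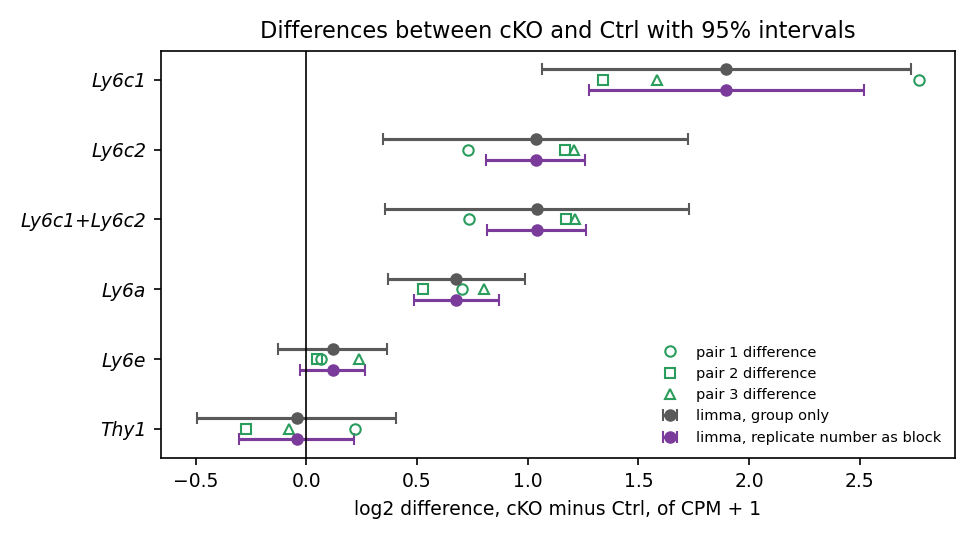
Log2 difference of CPM + 1, cKO minus Ctrl (horizontal axis), for each gene and the Ly6C sum, with 95% intervals from limma for group means (grey) and with the replicate block (purple), and open green symbols for the 3 same-numbered pairs. The block leaves the centres in place and narrows the intervals, as for Ly6c2, whose standard error is 0.29 without it and 0.098 with it.

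Levels were compared between the genes only per length, as CPM per kilobase of annotated exon. In Ctrl the order was Ly6e at 729.8 ± 37.9, Ly6c2 at 339.8 ± 139.7, Ly6a at 155 ± 16.9, Thy1 at 23.0 ± 2.84 and Ly6c1 at 1.5 ± 0.72 CPM per kilobase (SD, n = 3), and no 2 neighbours in this order overlapped between libraries. In cKO, Ly6e at 795 ± 93.9 and Ly6c2 at 672 ± 142 CPM per kilobase overlapped, while Ly6a at 249 ± 34.2, Thy1 at 22.6 ± 5.77 and Ly6c1 at 6.92 ± 1.22 followed apart. Among 17835 genes ranked by this level, Ly6e stood 31st in both groups. Ly6c2 stood 106th in Ctrl and 39th in cKO, and Ly6a 294th and 165th.

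Promoter sequences from RefSeq were on hand for 2 of the 5 genes, Ly6c1 and Ly6c2, the pair with the largest ratios between groups. RefSeq lists 2 starts for each, and the 250 bases before the one farther upstream are shown 5′ to 3′ on the minus strand of GRCm38.p6, for Ly6c1 at chr15:75048838-75049087 and for Ly6c2 at chr15:75111972-75112221; capitals mark a match to a searched motif.
Ly6c1: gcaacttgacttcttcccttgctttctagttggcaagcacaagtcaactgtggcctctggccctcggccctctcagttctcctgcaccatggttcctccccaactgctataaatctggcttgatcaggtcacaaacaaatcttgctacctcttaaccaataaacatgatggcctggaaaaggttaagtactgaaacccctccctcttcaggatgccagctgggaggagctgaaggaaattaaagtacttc
Ly6c2: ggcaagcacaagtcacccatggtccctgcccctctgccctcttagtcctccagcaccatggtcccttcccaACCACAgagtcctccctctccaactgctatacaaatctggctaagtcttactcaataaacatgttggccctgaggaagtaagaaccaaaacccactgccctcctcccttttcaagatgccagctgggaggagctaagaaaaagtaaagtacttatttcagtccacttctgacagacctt
Local alignment of these upstream sequences gave 164 identical bases over 227 alignment columns, an identity of 72.2%, lower than that of the coding sequences. The motifs searched, on both strands, were the interferon response core (GAAA, then any 2 bases, then GAAA), the STAT type (TTC and GAA with 2, 3 or 4 bases between them), the SMAD-type GTCTAGAC and CAGACA, the RUNX-type TGTGGT and the GC box CCGCCC. The single match in the sequences shown was the RUNX-type motif of Ly6c2, on the opposite strand at position -179 from the start. That motif was present in 16.8% of all 32851 promoter windows of 300 bases. In the 50 bases after the start, Ly6c1 held the CAGACA motif, which 21% of windows held, and Ly6c2 held the STAT-type motif with 2 bases between, which 8.52% held. Counted from the second listed start, these same matches lie upstream, at -134 for Ly6c1 and -27 for Ly6c2, and Ly6c1 holds a further CAGACA match just after that start.

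The 4 Ly6 genes lie within 156.92 kb of chromosome 15: Ly6e from 74955051 to 74959905 on the plus strand, and Ly6a from 74994877 to 74998031, Ly6c1 from 75044018 to 75048830 and Ly6c2 from 75108158 to 75111970 on the minus strand. No other gene of the table overlapped any of the 5 genes on either strand. Thy1 lies on chromosome 9 from 44043384 to 44048579. Within 500 kb of the Ly6 genes, 6 other genes were tested; none passed between group means and 1 passed with the block, where 0.663% and 2.87% of all tested genes passed. That gene was I830127L07Rik (75131377 to 75135128, minus strand), named from GENCODE M21, where it is a transcribed unprocessed pseudogene. It was at 0.773, 0.227 and 1.30 CPM in Ctrl and at 5.20, 6.92 and 8.90 CPM in cKO, with a log2 difference of 2.20 (limma adjusted p 0.133 between group means, 0.000688 with the block). Its longer transcript aligned to those of Ly6a and Ly6c2 with 84.8% and 79.5% identity, and no word of 75 bases was shared between it and Ly6a, Ly6c1 or Ly6c2. The gene with the next smallest p, Jrk, was at 11.75 ± 0.371 CPM for Ctrl against 6.80 ± 2.35 for cKO (SD, n = 3 each; limma adjusted p 0.567, 0.12 with the block). The median log2 difference of the 6 genes was -0.17, and 5 of them were lower in cKO.

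**Figure D3:**
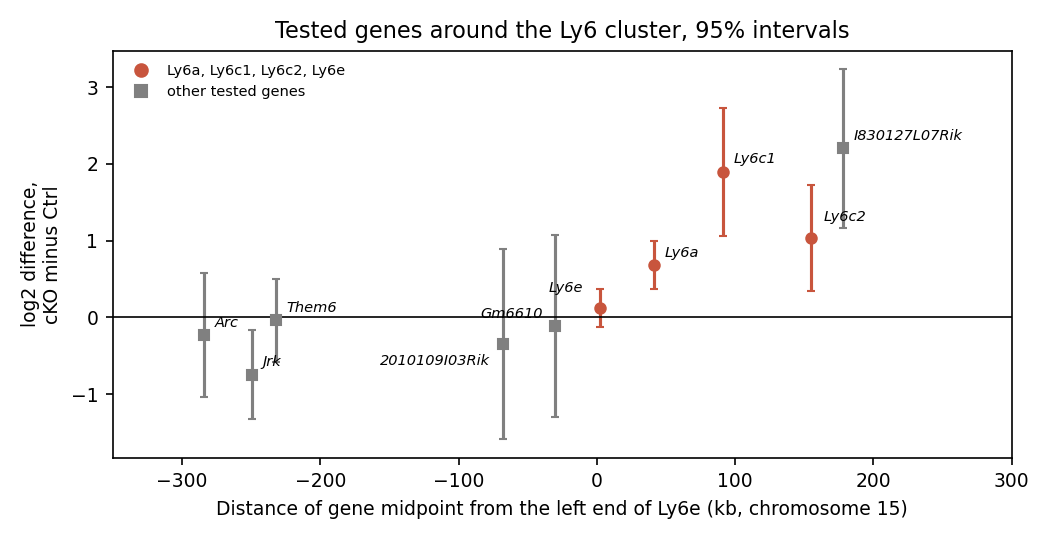
Log2 difference, cKO minus Ctrl, with 95% intervals from limma for group means (vertical axis) against the distance of each tested gene from the left end of Ly6e in kilobases (horizontal axis). Ly6a, Ly6c1, Ly6c2 and the pseudogene I830127L07Rik lie above 0, Ly6e is near 0 at 0.12, and the 5 genes to its left have values from -0.75 to -0.042.

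Besides Ly6a, Ly6c1, Ly6c2 and Ly6e, 4 genes of the Ly6 and uPAR domain family were tested, of which 1 passed in each fit, against 0.663% of all tested genes between group means and 2.87% with the block. Ly6g5b, a family member in the major histocompatibility complex on chromosome 17, fell from 72.2 ± 6.43 to 32.8 ± 3.16 CPM (SD, n = 3 each), with a log2 difference of -1.11 and a limma adjusted p of 0.0134. Lypd6b was at 3.53 ± 1.21 CPM for Ctrl against 6.85 ± 0.678 for cKO, with a limma adjusted p of 0.658 (0.11 with the block). The median log2 difference of the 4 genes was -0.16.

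Since the 5 proteins share a GPI anchor, the genes that build and remodel the anchor were examined. Of 30 tested, 7 were higher and 23 lower, where 59.0% of all tested genes were lower, and the median log2 difference was -0.082 against -0.038 for all. In each fit 1 of the 30 passed, where 0.663% of all tested genes passed between group means and 2.87% with the block. That was Gpaa1, a subunit of the transamidase that attaches the anchor to proteins, which also lies on chromosome 15 (76331231 to 76334907) and fell to 92.2 ± 2.74 CPM from 188 ± 29.3 CPM (SD, n = 3 each), at an adjusted p of 0.025 by limma. Pigp, Pigq and Dpm2, all of which act in early steps of anchor or sugar donor synthesis, were next by p and did not pass (limma adjusted p 0.663, 0.911 and 0.969).

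Among 14 other tested genes of a list drawn up for GPI-anchored proteins of lymphocytes, 7 were higher and 7 lower. Not all of them fit that heading: Tnfrsf10b, Ulbp1 and H60b encode membrane-spanning proteins in the mouse, and Art2a-ps is named as a pseudogene. Their log2 differences were 0.18, 0.30, -0.019 and 0.64 in that order, and the counts and the median given here include them. Nt5e, which encodes the ecto-nucleotidase CD73, fell from 179 ± 22.9 to 49.2 ± 2.85 CPM (SD, n = 3 each), with a log2 difference of -1.83 and a limma adjusted p of 0.00215. Art2b, an ADP-ribosyltransferase, was at 4.93 ± 2.39 CPM for Ctrl against 21.3 ± 6.72 for cKO (limma adjusted p 0.159) and rose with the block (0.000412). Cd52 was at 2128 ± 58.9 and 1799 ± 148 CPM and did not pass (limma adjusted p 0.633), and Cd160 did not pass either. The median log2 difference of the 14 genes was 0.048.

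Ly6a, Ly6e and Ly6C belong to the genes that interferon can induce, and 47 other interferon-stimulated genes were tested. Of these, 41 were higher and 6 lower in cKO, with a median log2 difference of 0.19 against -0.038 for all tested genes, of which 59.0% were lower. The replicate pairs differed in this: 5 of the 47 were lower in cKO in pair 1 and 5 in pair 2, against 47.6% and 57.6% of all tested genes. In pair 3, 22 of the 47 were higher and 25 lower. Of all tested genes in pair 3, 5287 were higher and 7751 lower, and the rest had equal values in both libraries. Between group means 2 passed, both lower, as did 0.459% of all tested genes: Gbp3, an interferon-induced GTPase, fell from 226 ± 11.8 to 65.2 ± 7.24 CPM (limma adjusted p 0.00215) and Isg20, an exonuclease, from 102 ± 25.8 to 17.2 ± 0.948 CPM (limma adjusted p 0.00444; SD, n = 3 each). With the block 5 passed as higher and 3 as lower, against 1.24% and 1.64% of all tested genes. Among the higher ones were Iigp1, from 9.07 ± 2.39 to 19.0 ± 1.67 CPM (limma adjusted p 0.14, 0.0264 with the block), and Ifi27l2a, from 269 ± 32.4 to 449 ± 101 CPM (0.267, and 0.00221 with the block). Groups were apart with cKO higher for 9 of the 47, against 3.89% of all tested genes.

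**Figure D4:**
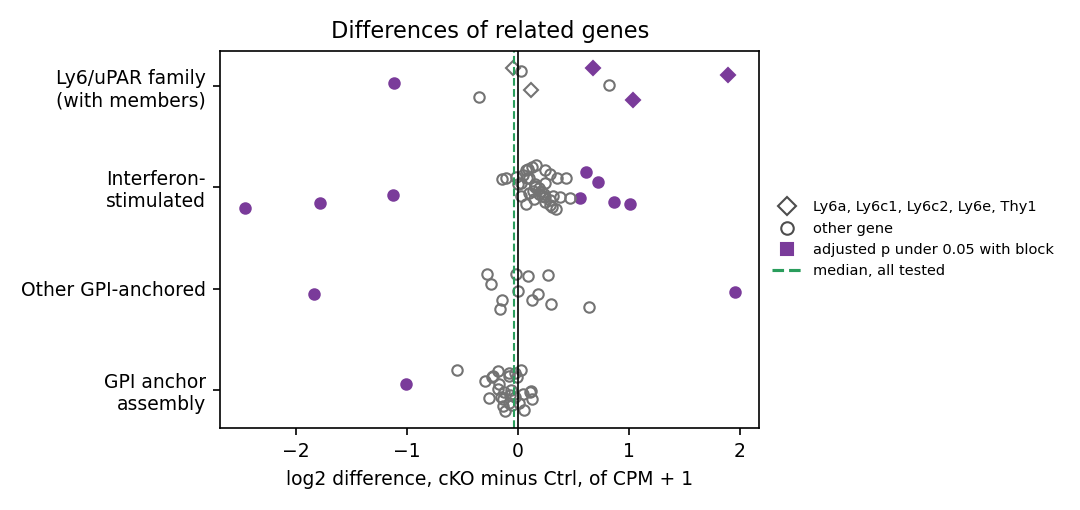
Log2 difference of CPM + 1, cKO minus Ctrl (horizontal axis), for each tested gene of 4 lists, with diamonds for Ly6a, Ly6c1, Ly6c2, Ly6e and Thy1, circles for other genes, filled purple symbols for an adjusted p under 0.05 with the replicate block, and a dashed line at the median of all tested genes. Most interferon-stimulated genes (41 of 47) lie right of 0 by group means (in the replicate 3 pair alone, 25 of 47 were lower), with Gbp3 and Isg20 far to the left, and anchor assembly genes lie close to 0 except Gpaa1.

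Ly6C and Ly6A also mark cells other than T cells, so genes of such cells were read beside them. Of 13 listed macrophage, monocyte and neutrophil genes, 7 were in the table, and their summed level ran from 159 to 203 CPM in Ctrl and from 340.3 to 440.9 CPM in cKO. Most of that sum was Ccr2, a chemokine receptor that T cells share, which rose from 161 ± 31.4 to 384 ± 59.7 CPM, at an adjusted p of 0.0352 by limma. Without Ccr2 the sum of the other 6 ran from 5.38 to 20.8 CPM in Ctrl and from 6.48 to 24.3 CPM in cKO. In the replicate 3 libraries, which listed 4406 and 4590 genes at 0, Csf1r and Clec4a1 were at 0 and the other 4 of these genes lay between 0.264 and 4.32 CPM. Of 13 listed endothelial genes, 6 were in the table, with a sum from 39.5 to 42.7 CPM in Ctrl and from 66.0 to 78.3 CPM in cKO. Pecam1, which leucocytes also express, rose from 26.7 ± 3.80 to 57.0 ± 8.09 CPM (limma adjusted p 0.0423), and without it the sum of the other 5 ran from 10.9 to 19.7 CPM in Ctrl and from 6.36 to 20.7 CPM in cKO. In the same replicate 3 libraries Kdr, Emcn and Esam were at 0, Tek at 0.0189 and 0 CPM, and Eng at 10.9 and 6.36 CPM, its highest levels. Of 13 dendritic cell genes, 10 were in the table, with sums from 145 to 173 CPM in Ctrl and from 144 to 185 CPM in cKO, none past the threshold. Most of the dendritic sum was Bst2, from 93.0 to 116 CPM in Ctrl and from 95.3 to 135 CPM in cKO. No gene of the B cell, double-positive thymocyte, stromal or erythroid lists passed in either fit, and their summed levels overlapped between groups. The B cell sum was mostly Ighm, from 343 to 377 CPM in Ctrl and from 354 to 454 CPM in cKO, so it says little about the other B cell genes. Of 11 tested genes of the iNKT2 and iNKT17 list none passed between group means. With the block Plac8 and Ccr4 rose (limma adjusted p 0.00613 and 0.0115) and Il4 fell (0.00806), where 1.24% of all tested genes passed as higher and 1.64% as lower. The part of these cells in the Ly6C and Ly6A differences was not tested beyond these values.

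Genes whose log2(CPM + 1) followed each of the 5 genes most closely over the 6 libraries were taken from 10043 genes that averaged at least 5 CPM. For Ly6a these were Sh3kbp1, Ccl5 and Prps1l3 (Pearson r 0.988, 0.987 and 0.986), and for Ly6c2 Zfp930, Strn3 and Plek (0.976, 0.975 and 0.974). For Ly6c1 they were D16Ertd472e, Hcls1 and Esrra (0.992, 0.984 and 0.981). Ccl5, a chemokine of effector lymphocytes, was at 167 ± 25.5 CPM for Ctrl against 372 ± 75.9 for cKO (SD, n = 3 each; limma adjusted p 0.0631) and rose with the block (0.00078). For Ly6e the closest were Cox7b, Cpsf4 and Gde1 (0.996, 0.991 and 0.99), and for Thy1 D230025D16Rik, Dhx29 and Maml2 (0.997, 0.987 and 0.98). Among the 5 genes, Ly6a followed Ly6c2 at 0.926 and Ly6c1 at 0.827. Ly6c2 and Ly6e stood at 0.025, and Ly6e and Thy1 at -0.74. These are descriptions over 6 libraries that share depth, group and replicate number.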

How the data were processed

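Values were deposited as CPM per library. The submitters' processing notes list Trimmomatic 0.33, STAR 2.5.2, HTSeq 0.6.1, edgeR and build mm10. Every value was a whole multiple of 1 read (tolerance 0.01 read), so reads were recovered; 100% of values came out whole. A log2 fold change, a likelihood-ratio score, p-values, adjusted p-values and 0/1 marks by the authors, per the file headers, are quoted only where named. The table's WT and KO columns were read as Ctrl and cKO. The 5 genes and all gene lists were chosen with earlier results of these data known. Named genes were these 5, up to 4 per related list by smallest p, the neighbours on chromosome 15, and 3 like genes each. Ccr2, Pecam1, Xcl1, Plac8, Ccr4, Il4, the other cell type genes named and the label checks were added after their values were seen. Tnfrsf10b, Ulbp1, H60b and Art2a-ps are named for what they encode.

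The test was limma 3.58.1 (R 4.3.3) on log2(CPM + 1) for genes averaging at least 1 CPM, group only, two-sided, with trend and robust moderation. Adjustment was by Benjamini-Hochberg over 15691 genes, with a threshold of 0.05. The test was also run on simulated counts. These held no replicate effect, so they cannot tell whether the fit with or without the block suits these libraries. The Ly6C sum replaced both rows in a refit. Deviations from group means correlated at 0.855, 0.688 and 0.924 between same-numbered libraries, so the numbers were taken to pair them. The pairing comes from the data, and Ctrl replicate 2 correlated slightly more with cKO replicate 1 (0.718). Alternatives used edgeR 4.0.16, DESeq2 1.42.0 and limma-voom on the recovered reads, TMM and upper quartile scaling, other pseudocounts and filters, replicates 1 and 2 alone, and leaving out each library. Of 930 genes without a symbol, 892 were named from GENCODE M21 (GRCm38), which also gave exon lengths. No molecular identifiers are named in the labels, so depth speaks to counting error only; strand use in counting is not given in the sources used here.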

Additional observations from a re-analysis of the deposited data

How the results depend on the processing

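Ly6a, Ly6c1, Ly6c2, their Ly6C sum and Ly6e kept their direction in every setting run. Past the threshold came, with the replicate block, Ly6a at 0.68, Ly6c1 at 1.90, Ly6c2 at 1.04 and the sum at 1.04. With TMM scaling and the replicate block the same values were 0.72, 1.93, 1.08 and 1.09, with edgeR and the replicate block 0.73, 2.32, 1.08 and 1.09, and with DESeq2 0.74, 2.25, 1.03 and 1.03. In replicates 1 and 2 alone Ly6c1 at 2.05 passed, and with the replicate block there, a setting chosen after seeing the data, Ly6a at 0.62, Ly6c1 at 2.05, Ly6c2 at 0.95 and the sum at 0.95 passed. Over the 14 settings other than leaving out 1 library, adjusted p-values lay between 4.42e-09 and 0.153 for Ly6a and from 1.73e-06 to 0.315 for Ly6c1. They lay from 0.000333 to 0.700 for Ly6c2 and from 0.533 to 0.999999 for Ly6e. The low ends for Ly6a and Ly6c1 came from replicates 1 and 2 with the replicate block, the setting chosen after seeing the data. Among the other settings their smallest were 7.04e-06 and 0.0001, both by DESeq2. Thy1 changed sign, at 0.011 under edgeR without the block and 0.020 under DESeq2, and never passed. Leaving out each library in turn gave from 0.58 to 0.78 for Ly6a, 1.57 to 2.08 for Ly6c1, 0.82 to 1.35 for Ly6c2, 0.025 to 0.18 for Ly6e and -0.24 to 0.079 for Thy1, with none past the threshold in these fits. The Ly6c2 to Ly6c1 ratio difference ran from -1.80 to -0.49 there, and with 3 pairs an exact sign-flip test cannot go below 0.25.

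Genes called numbered 104 between group means, 451 with the replicate block, 513 with that block after TMM scaling, 40 and 469 under edgeR without it and with it, 552 under DESeq2, 62 under limma-voom, 291 and 943 in replicates 1 and 2 without and with the replicate block, and 26 at a threshold of 0.01. Fits without 1 library gave 14 to 85, and the cause of these lower counts was not tested. Depth limits Ly6c1 most, at 38 reads in Ctrl replicate 1.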
